A study of Arabidopsis thaliana with 27 samples.

Results

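The genes that make, inactivate and respond to jasmonate were followed in *Arabidopsis* seedlings given a shade signal. There were 34 of them among the 34262 genes of the count table. They were chosen by name for their place in the pathway, with earlier results of these data known. They comprise 10 genes of synthesis, 8 of inactivation, the receptor gene *COI1* with 3 *MYC* genes, 10 *JAZ* genes and the 2 storage protein genes *VSP1* and *VSP2*.

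RNA-seq was done on whole seedlings 7 days old, of the wild type Col-0, of *hfr1-101* and of *pif457*, in which the alleles *pif4-101*, *pif5-3* and *pif7-1* are combined. Seedlings grew in cycles with a 16 h day, either in white light throughout (high red to far-red ratio, HRFR) or with far-red light added (low ratio, LRFR) for 1 h from ZT2 of day 7 or for 25 h from ZT2 of day 6, ZT being the time in hours since lights on. Harvest was at ZT3 of day 7 in every group. The 9 groups had 3 libraries each, every library from its own pool of seedlings, and nothing in the sources says that pools of one number shared a day or a plate. The kind of lesion in *hfr1-101* is not given in the sources used here.

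Jasmonate is made from a fatty acid of the chloroplast by lipoxygenases (LOX), allene oxide synthase (AOS) and allene oxide cyclases (AOC), is finished in the peroxisome after reduction by OPR3, and becomes active when JAR1 joins it to isoleucine. The conjugate brings the F-box protein COI1 together with JAZ repressors, which are then destroyed, and MYC2, MYC3 and MYC4 are freed to switch on defence genes. Oxidases of the CYP94 and JOX kinds and the sulfotransferase ST2A take jasmonates out of action. Shade is read by phytochrome B, whose inactivation in LRFR releases PIF transcription factors, and HFR1 is a related protein that binds PIFs and keeps them from DNA.

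Reads in genes ranged from 24.9 to 34.9 M per library. The mutated genes were checked first: *PIF7* averaged 51.0 CPM (a gene's reads relative to all reads in genes of its library, with TMM scaling between libraries) in Col-0 and 3.24 CPM in *pif457* in HRFR, *PIF5* 156 and 12.8 CPM, and *PIF4* 104 and 50.7 CPM. *HFR1* itself was not lower in *hfr1-101* (19.8 CPM against 15.6 CPM in Col-0 in HRFR), so its transcript does not check that label, and directions below are those of the libraries labelled *hfr1-101*. Replicate 1 of Col-0 in HRFR and replicate 1 of Col-0 after 25 h of LRFR stood apart from their groups at -32.1 and -38.5 on the first axis of deviation from the group means, where the other 25 libraries lay between -16.3 and 23.5. The summed level of 9 root markers was also highest of their groups in these libraries, 5687 CPM and 5645 CPM, against 3423 to 3666 CPM and 3150 to 3447 CPM in the others. By chi-square per gene between counts, they differed from their partners by 18.4 to 24.7 and by 37.0 to 49.2. Replicate 3 of Col-0 after 1 h of LRFR differed from its partners by 15.4 and 15.1 and was not apart on the axis (-11.5), while other pairs of one group differed by 2.78 to 8.86. Calls that were lost without 1 of these 3 libraries are given with the value without it.

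Each of 17 comparisons was tested for 20887 genes with edgeR's quasi-likelihood test in a single fit of all 27 libraries, and p was adjusted by Benjamini-Hochberg over all genes tested. A gene was called at adjusted p below 0.05, and in comparisons of light conditions also needed an absolute log2 fold change (log2FC) above 0.6. Comparisons with Col-0 HRFR share those libraries, as do the light and genotype comparisons of a group, so their values are set side by side and are not separate evidence. In whole seedlings, a lower level can come from fewer cells of a type or from less RNA per cell, and these cannot be told apart.

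Of the 34 genes, 30 had enough reads to be tested. *DAD1*, a lipase gene of flowers, had 0 reads in all libraries. *JOX1*, *JOX4* and *JAZ8* had at most 8, 7 and 8 reads in any library and were not tested. Per kb of exon, mean levels over the 27 libraries ran from 0.202 CPM for *JOX3* to 75.2 CPM for *AOS*. *COI1* and *MYC3* varied least, from 12.2 to 14.6 CPM per kb and from 14.3 to 17.3 CPM per kb, and *ST2A* varied most, from 0.514 to 38.2 CPM per kb.

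**Figure D1:**
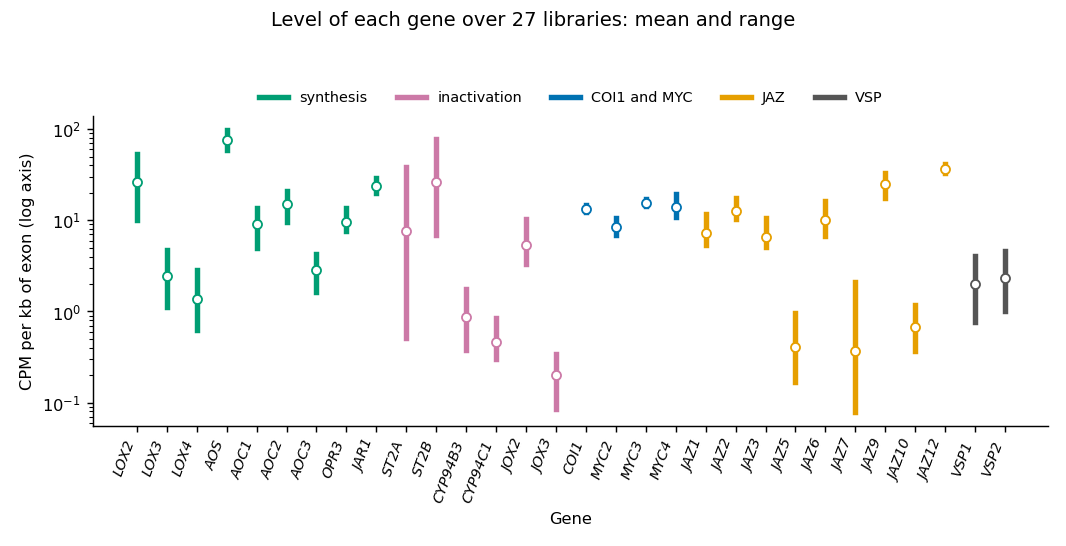
Level of each of the 30 tested genes in CPM per kb of exon (log axis), coloured by role; the circle is the mean and the bar the range over 27 libraries. *AOS* has the highest mean, 75.2 CPM per kb, and the bar of *ST2A* spans 0.514 to 38.2 CPM per kb.

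LRFR for 1 h raised 2 of the 30 genes in Col-0 and lowered 2. Both that rose, *ST2A* and *ST2B*, encode sulfotransferases, and both that fell, *LOX3* and *LOX4*, encode lipoxygenases. Among all genes tested, 1.42% rose and 0.685% fell in the same comparison. The other 26 genes did not pass, and the median log2FC of the 30 was -0.18, beside -0.01 over all genes tested, with 23 of 30 negative, beside 54.1% of all genes. These signs rested on Col-0 HRFR replicate 1, since without it 15 of 30 were negative and the median was 0.00. After 25 h, *ST2A* and *ST2B* were the members called, both higher (2.38% of all genes rose), with a median of -0.03 over the 30 (0.13 without both Col-0 libraries that stood apart). In *pif457*, 0 of 30 were called at 1 h, where 0.148% of all genes were (3 had an unadjusted p below 0.05, and DESeq2 called 0).

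**Figure D2:**
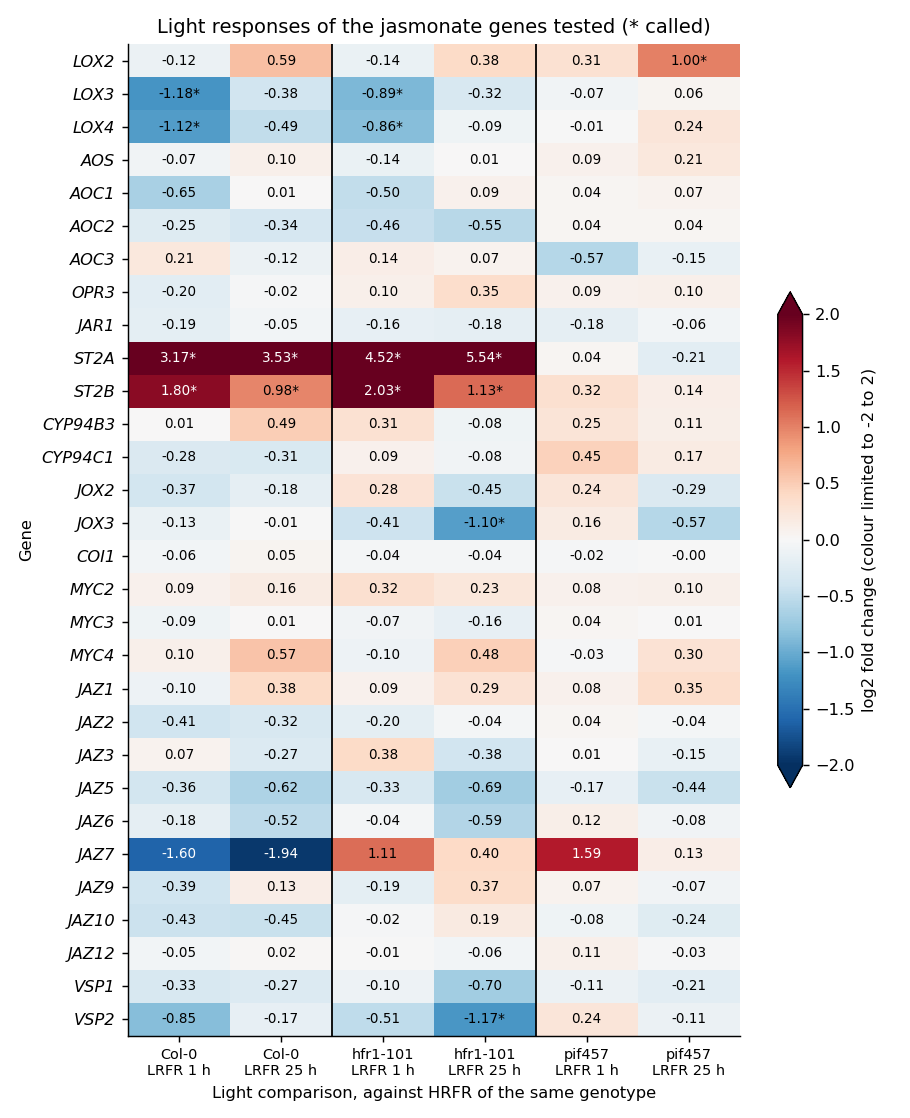
Heat map of log2FC in LRFR against HRFR of the same genotype for the 30 tested genes (rows) at 1 h and 25 h (columns), with the value in each cell, colour limited to -2 to 2 and an asterisk where the gene was called. *ST2A* and *ST2B* carry asterisks in all 4 columns of Col-0 and *hfr1-101* and in neither of *pif457*.

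*ST2A* (AT5G07010), whose product sulfates 12-hydroxyjasmonate, was nearly silent in HRFR. In Col-0 it stood at 0.915, 1.33 and 1.38 CPM in HRFR, at 9.59, 9.39 and 13.5 CPM after 1 h of LRFR and at 20.2, 11.2 and 10.1 CPM after 25 h. In the libraries labelled *hfr1-101* it stood at 1.67, 1.10 and 1.15 CPM in HRFR, at 21.5, 32.7 and 37.1 CPM after 1 h and at 64.3, 52.5 and 67.9 CPM after 25 h. In *pif457* it stood at 1.44, 1.38 and 1.27 CPM in HRFR, at 1.37, 1.07 and 1.78 CPM after 1 h and at 0.962, 1.12 and 1.42 CPM after 25 h. Every shaded library of Col-0 and *hfr1-101* was above every HRFR library and above every *pif457* library, and the 3 conditions of *pif457* overlapped. The rise in Col-0 was 8.98-fold at 1 h (log2FC 3.17, SE 0.29, adjusted p = 2.75e-08, edgeR) and 11.5-fold at 25 h (3.53, SE 0.29, adjusted p = 9.72e-09, edgeR). Without both Col-0 libraries that stood apart, the value at 25 h was 2.98. In *hfr1-101* it was 23.0-fold at 1 h and 46.5-fold at 25 h (log2FC 4.52 and 5.54, SE 0.27 each, edgeR adjusted p = 9.43e-12 and 9.09e-13).

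*ST2B* (AT5G07000) is the closest relative of *ST2A*. In Col-0 its levels were 26.6, 20.4 and 20.3 CPM in HRFR, 68.6, 68.4 and 98.3 CPM after 1 h and 52.2, 37.7 and 43.5 CPM after 25 h. In *hfr1-101* they were 26.5, 26.6 and 27.8 CPM in HRFR, 85.2, 116 and 128 CPM after 1 h and 66.0, 47.3 and 63.1 CPM after 25 h. In *pif457* they were 17.01, 13.2 and 11.3 CPM in HRFR, 16.5, 19.0 and 16.3 CPM after 1 h and 15.9, 15.2 and 14.7 CPM after 25 h. The 3 conditions did not overlap in Col-0 or in *hfr1-101*, with 1 h highest, whereas in *pif457* each shaded group overlapped with HRFR. The rise in Col-0 was 3.48-fold at 1 h (log2FC 1.80, SE 0.17, adjusted p = 5.09e-08, edgeR) and 1.98-fold at 25 h (0.98, SE 0.17, adjusted p = 2.59e-04, edgeR). In *hfr1-101* it was 4.07-fold at 1 h and 2.18-fold at 25 h (log2FC 2.03 and 1.13, SE 0.17 each, edgeR adjusted p = 4.65e-09 and 2.68e-05).

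The time courses of the 2 sulfotransferase genes were then set side by side. From 1 h to 25 h in Col-0, *ST2B* fell 1.76-fold (log2FC -0.82, SE 0.16, adjusted p = 0.00109, edgeR), while *ST2A* had a log2FC of 0.36 (SE 0.22, adjusted p = 0.317, edgeR) with overlapping libraries. *ST2B* was the 1 member that fell between these times, beside 2.36% of all genes. Whether the time courses of both genes differ was not tested.

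**Figure D3:**
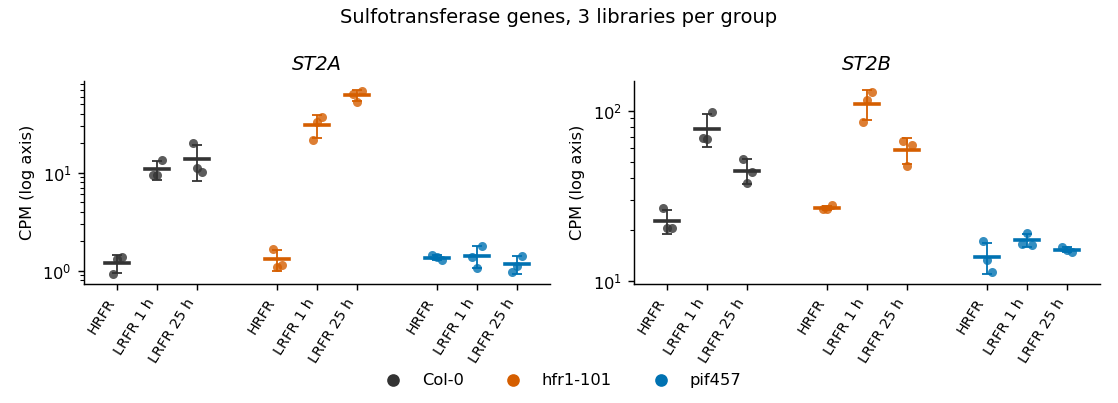
*ST2A* (left) and *ST2B* (right) in CPM on log axes; points are libraries, the bar is the mean and the whiskers the SD of 3 libraries per group. *ST2A* reaches 67.9 CPM in *hfr1-101* at 25 h and stays between 0.962 and 1.78 CPM in every *pif457* library.

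The responses of both genes differed between *pif457* and Col-0 by the interaction test. At 1 h the difference in log2FC was -3.13 for *ST2A* (SE 0.48, adjusted p = 2.68e-04, edgeR) and -1.48 for *ST2B* (SE 0.25, adjusted p = 7.81e-04, edgeR). These were the members with a lower response in *pif457* at 1 h, where 1.16% of all genes had one. At 25 h the difference was -3.74 for *ST2A* (SE 0.48, adjusted p = 3.99e-04, edgeR), the 1 member lower beside 0.345% of all genes. For *ST2B* it was -0.84 (SE 0.25, adjusted p = 0.192, edgeR). Levels themselves were lower in *pif457* than in Col-0 after 1 h, 7.66-fold for *ST2A* and 4.54-fold for *ST2B* (log2FC -2.94 and -2.18, edgeR adjusted p = 8.18e-08 and 2.70e-09), and after 25 h, 11.8-fold and 2.92-fold (log2FC -3.55 and -1.54, edgeR adjusted p = 1.57e-08 and 3.51e-06). In HRFR *ST2B* was already 1.62-fold lower (log2FC -0.70, SE 0.18, adjusted p = 0.0350, edgeR). That call was lost without Col-0 HRFR replicate 1 (-0.56, adjusted p = 0.224, edgeR), without *pif457* HRFR replicate 2 or 3 and in a fit of only the groups compared. For *ST2A* in HRFR the log2FC was 0.19 (SE 0.37, adjusted p = 0.823, edgeR).

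In *hfr1-101*, *ST2A* was the single member called against Col-0 in shade. It was 2.82-fold higher after 1 h (log2FC 1.50, SE 0.21, adjusted p = 5.08e-04, edgeR) and 4.44-fold higher after 25 h (2.15, SE 0.21, adjusted p = 1.24e-06, edgeR), and the libraries did not overlap at either time. Of all genes, 0.139% and 0.177% were higher in these comparisons. A fit of the compared groups alone gave 2.14 at 25 h with adjusted p = 0.0549 (edgeR). In HRFR 0 members were called, beside 0.0814% of all genes (2 had an unadjusted p below 0.05, and DESeq2 called 0). The interaction test called 0 members at 1 h and 0 at 25 h, as it called 0 of all genes (0%) at both times. For *ST2A* the larger response in *hfr1-101* was 1.36 at 1 h (SE 0.44, adjusted p = 1.00, edgeR) and 2.01 at 25 h (SE 0.43, unadjusted p = 1.17e-04, adjusted p = 0.346, edgeR). There were 3 members with an unadjusted p below 0.05 at each time. DESeq2 called 0 members at 1 h and 1 at 25 h, beside 4 and 5 of all genes.

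The 2 sulfotransferase genes lie in tandem on chromosome 5, 1652 bases apart on the minus strand, *ST2B* at 2171367 to 2173015 and *ST2A* at 2174668 to 2176446 (RefSeq, TAIR10.1). Their coding sequences are 91.6% identical, so that reads matching both may have been counted for neither or for the wrong gene. The PIF family binds the G-box (CACGTG), which MYC2 binds as well, and the PBE-box (CACATG). Within 250 bases before and 50 after the start of transcription, on either strand, a G-box was found in 6 of the 34 genes (17.6%) and in 7.68% of 27443 protein-coding genes, and a PBE-box in 7 (20.6%) and in 12.9%. Neither was in those windows of *ST2A*, *ST2B* or *LOX4*. Within 2000 bases before the start, 20 of the 34 (58.8%) had a G-box, beside 23.8% of all genes. The 250 bases before the start of the 4 members with the largest called responses in Col-0 are printed here because they are most of the stretch searched. Capitals mark the PBE-box (read from the opposite strand as CATGTG) in *LOX3* and, in *LOX4*, a run shared with *LOX3*.
*ST2A*, chr5:2176447-2176696, minus strand: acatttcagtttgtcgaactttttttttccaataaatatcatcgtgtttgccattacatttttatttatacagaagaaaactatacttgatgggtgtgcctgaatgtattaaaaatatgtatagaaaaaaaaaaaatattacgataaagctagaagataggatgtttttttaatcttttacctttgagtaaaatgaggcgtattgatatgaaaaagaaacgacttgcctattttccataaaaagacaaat
*ST2B*, chr5:2173016-2173265, minus strand: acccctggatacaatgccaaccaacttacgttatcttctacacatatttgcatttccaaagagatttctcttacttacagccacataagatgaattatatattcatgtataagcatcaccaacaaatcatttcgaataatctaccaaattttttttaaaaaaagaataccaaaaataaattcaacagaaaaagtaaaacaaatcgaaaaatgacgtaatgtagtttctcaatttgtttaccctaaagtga
*LOX3*, chr1:5977073-5977322, plus strand: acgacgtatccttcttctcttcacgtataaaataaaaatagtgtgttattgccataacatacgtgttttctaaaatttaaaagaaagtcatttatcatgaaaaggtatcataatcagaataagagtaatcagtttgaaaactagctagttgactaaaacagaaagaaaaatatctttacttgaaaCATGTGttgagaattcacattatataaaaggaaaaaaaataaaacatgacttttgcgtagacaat
*LOX4*, chr1:27308263-27308512, plus strand: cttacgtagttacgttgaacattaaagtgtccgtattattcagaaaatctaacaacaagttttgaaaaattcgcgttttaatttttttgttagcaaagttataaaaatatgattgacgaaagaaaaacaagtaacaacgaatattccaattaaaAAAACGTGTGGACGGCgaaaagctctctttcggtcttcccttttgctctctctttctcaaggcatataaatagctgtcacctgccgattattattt

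Farther out, *ST2A* and *ST2B* each had 1 G-box within 2000 bases, 1860 bases before the start of *ST2A* and 1935 before that of *ST2B*. The latter falls inside *ST2A* itself. They are shown with the bases on either side, the G-box in capitals, and a match is no evidence of binding.
*ST2A* G-box, chr5:2178289-2178318, minus strand: tgaacgtggtacCACGTGggtatggagtgg
*ST2B* G-box, chr5:2174933-2174962, minus strand: taaatataaggcCACGTGcccccatttcta

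Of the 9 synthesis genes tested, *LOX3* and *LOX4* fell in Col-0 at 1 h and 8 of 9 had a negative log2FC (median -0.20), or 7 of 9 without Col-0 HRFR replicate 1 (median -0.12). *LOX3* (AT1G17420) and *LOX4* (AT1G72520) encode chloroplast 13-lipoxygenases that take part in the first step. *LOX3* in Col-0 stood at 14.6, 7.64 and 9.04 CPM in HRFR, at 4.01, 3.47 and 6.56 CPM after 1 h and at 8.25, 8.38 and 7.47 CPM after 25 h. In *hfr1-101* it stood at 7.15, 9.39 and 9.16 CPM, at 4.19, 4.48 and 5.18 CPM and at 7.15, 6.92 and 6.55 CPM in the same order. In *pif457* it stood at 8.69, 7.70 and 7.99 CPM, at 7.92, 8.09 and 7.21 CPM and at 8.21, 7.71 and 9.49 CPM. The 1 h libraries of Col-0 and *hfr1-101* lay below all their HRFR libraries, the 25 h libraries overlapped with HRFR, and all conditions of *pif457* overlapped. The fall at 1 h was 2.26-fold in Col-0 (log2FC -1.18, SE 0.20, adjusted p = 2.78e-04, edgeR) and 1.85-fold in *hfr1-101* (-0.89, SE 0.20, adjusted p = 0.00580, edgeR). Col-0 HRFR replicate 1 was the highest library, and without it the fall in Col-0 was -0.85 (adjusted p = 0.00362, edgeR). A fit of the 2 compared groups alone gave -1.16 with adjusted p = 0.101 (edgeR).

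*LOX4* was at 8.72, 3.74 and 4.27 CPM in Col-0 in HRFR, at 1.91, 2.49 and 3.43 CPM after 1 h and at 4.48, 4.27 and 3.30 CPM after 25 h. In *hfr1-101* it was at 4.23, 4.76 and 4.85 CPM in HRFR and at 2.43, 2.35 and 2.87 CPM after 1 h. The groups did not overlap in either genotype at 1 h, and in *pif457* they did (3.83 to 4.90 CPM in HRFR and 3.68 to 5.08 CPM after 1 h). Its fall was 2.18-fold in Col-0 (log2FC -1.12, SE 0.24, adjusted p = 0.00426, edgeR) and 1.81-fold in *hfr1-101* (-0.86, SE 0.24, adjusted p = 0.0406, edgeR). In Col-0 the call was lost without HRFR replicate 1 (-0.64, adjusted p = 0.0783, edgeR) and without LRFR 1 h replicate 1 (-0.93, adjusted p = 0.0544, edgeR). There it was also lost in a fit of only the groups compared. In *hfr1-101* it was lost without any 1 of the 6 libraries (log2FC -0.95 to -0.80). The 2 called members that rose and the 2 that fell in *hfr1-101* at 1 h were thus *ST2A*, *ST2B*, *LOX3* and *LOX4*, beside 1.62% and 0.876% of all genes.

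The response of *LOX3* differed between *pif457* and Col-0 by 1.11 on the log2 scale at 1 h (SE 0.28, adjusted p = 0.0326, edgeR), the 1 member with a higher response in the mutant, beside 0.876% of all genes. Without Col-0 HRFR replicate 1 it was 0.78 (adjusted p = 0.118, edgeR), and the call was also lost without Col-0 LRFR 1 h replicate 1 or 2, *pif457* HRFR replicate 2 or 3, or any *pif457* LRFR 1 h library (log2FC 0.93 to 1.15). A fit of only the groups compared lost the call as well. For *LOX4* the difference was 1.12 (SE 0.33, adjusted p = 0.105, edgeR). Over all 30 members, 24 had a positive value in this test (median 0.27), beside 53.1% of all genes. The same test of *hfr1-101*, which uses the same Col-0 libraries, also had 24 positive (median 0.20, beside 0.01 over all genes). Without Col-0 HRFR replicate 1 the counts were 19 for *pif457* and 13 for *hfr1-101* (medians 0.07 and -0.01). After 1 h, *LOX3* was 1.67-fold higher in *pif457* than in Col-0 (log2FC 0.74, SE 0.20, adjusted p = 0.0342, edgeR), 1 of 2 members higher, beside 1.8% of all genes. That call was lost without Col-0 LRFR 1 h replicate 1 or 2 (0.64 and 0.56, edgeR adjusted p = 0.167 and 0.228). It was also lost without any *pif457* LRFR 1 h library and in a fit of only the groups compared. From 1 h to 25 h in Col-0 *LOX3* rose 1.73-fold (log2FC 0.79, SE 0.20, adjusted p = 0.00871, edgeR). This call was lost without LRFR 1 h replicate 1 or 2 (0.70 and 0.62, edgeR adjusted p = 0.0591 and 0.0753) and in a fit of only the groups compared.

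The windows around the starts of *LOX3* and *LOX4* held the same 16 bases, AAAACGTGTGGACGGC. They begin 17 bases after the start in *LOX3* and 96 before it in *LOX4*, and these were the 2 windows of 27443 that hold the run. The coding sequences of these genes are 80.6% identical. *LOX3* lies at chr1:5977323-5981521 and *LOX4* at chr1:27308513-27312756, both on the plus strand.

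*LOX2* (AT3G45140), the most abundant lipoxygenase gene of the 3, was lower in *pif457* than in Col-0 in HRFR. There it stood at 95.9, 107 and 79.5 CPM in Col-0 and at 47.6, 45.4 and 33.2 CPM in *pif457*, without overlap. After 1 h it stood at 81.0, 56.6 and 122 CPM in Col-0 and 42.7, 60.0 and 53.8 CPM in *pif457*, and after 25 h at 114, 174 and 139 CPM and 76.7, 79.8 and 96.6 CPM. The groups overlapped at 1 h and did not at 25 h, and neither difference was called (log2FC -0.73 and -0.75, edgeR adjusted p = 0.155 and 0.0761). The level in HRFR was 2.24-fold lower in *pif457* (log2FC -1.16, SE 0.26, adjusted p = 0.0175, edgeR), and the call was lost without Col-0 HRFR replicate 1 (-1.15, adjusted p = 0.0607, edgeR) and without *pif457* HRFR replicate 2 or 3 (-1.22 and -1.02). At 25 h in *pif457* *LOX2* rose 2.00-fold (log2FC 1.00, SE 0.26, adjusted p = 0.0417, edgeR), the 1 member called there, beside 0.498% of all genes that rose, and the call was lost without any 1 of the 6 libraries (0.86 to 1.10). The rise in Col-0 was 0.59 (SE 0.26, adjusted p = 0.157, edgeR), and the interaction was 0.41 (SE 0.37, adjusted p = 0.985, edgeR).

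*AOC1* (AT3G25760), 1 of 3 neighbouring cyclase genes, stood in Col-0 at 13.8, 11.1 and 9.76 CPM in HRFR, at 6.84, 5.92 and 9.47 CPM after 1 h and at 8.14, 16.3 and 10.7 CPM after 25 h. The 1 h libraries lay below HRFR but overlapped with 25 h. Its log2FC from 1 h to 25 h was 0.66 (SE 0.21, adjusted p = 0.0322, edgeR), which with *LOX3* made 2 members that rose, beside 2.66% of all genes. The call was lost without LRFR 1 h replicate 1 or 2 (0.61 and 0.53), without LRFR 25 h replicate 2 (0.35, adjusted p = 0.257, edgeR) and in a fit of only the groups compared. The coding sequences of *AOC1* and *AOC2* are 90.3% identical and those of *AOC3* 82.7% and 82.4% identical to them. Reads matching more than 1 of them may have been counted for none or for the wrong gene. *AOC2*, *AOC3*, *AOS*, *OPR3* and *JAR1* were called in 0 of the 17 comparisons. *AOS* averaged between 129 and 169 CPM in the 9 groups and *JAR1*, which makes the active conjugate, between 56.2 and 70.9 CPM.

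**Figure D4:**
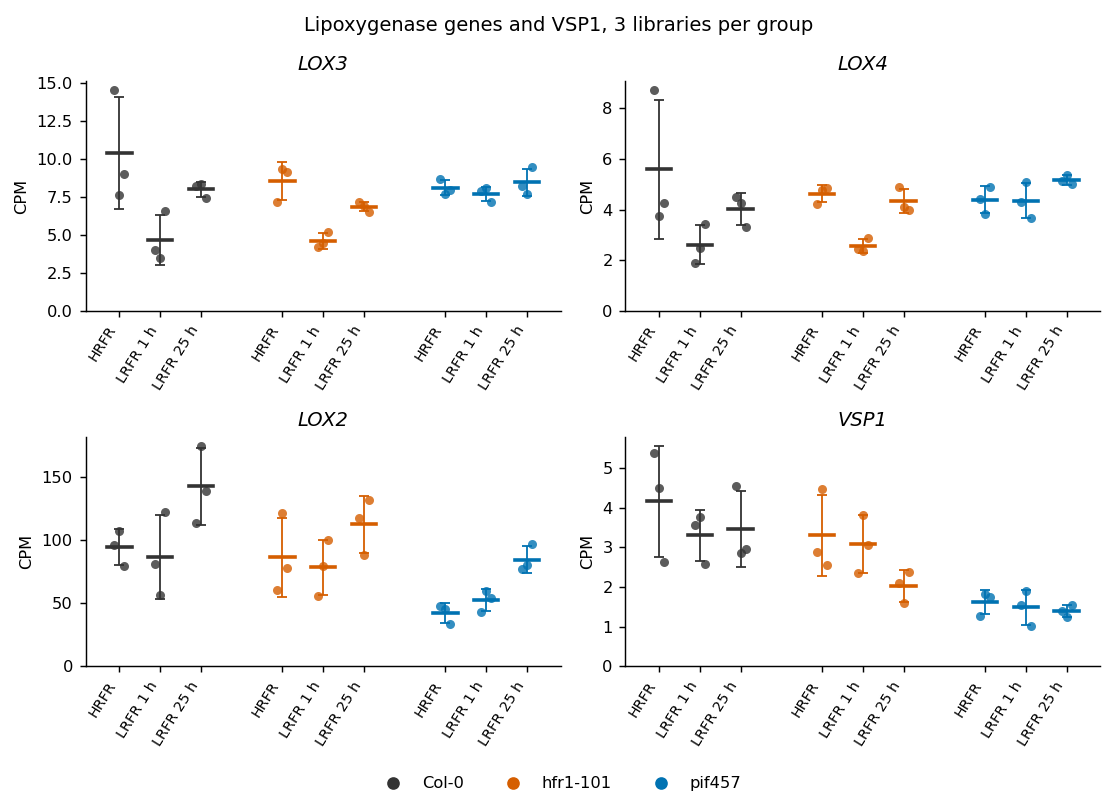
*LOX3*, *LOX4*, *LOX2* and *VSP1* in CPM (axes from 0); points are libraries, the bar is the mean and the whiskers the SD of 3 libraries per group. *LOX3* and *LOX4* are lowest at LRFR 1 h in Col-0 and *hfr1-101*, Col-0 HRFR replicate 1 is the highest point of both (14.6 and 8.72 CPM), and *LOX2* and *VSP1* are low in *pif457* in HRFR.

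Among the oxidase genes of inactivation, only *JOX3* was called in any of the 17 comparisons. *JOX2* was the most abundant (7.92 to 24.9 CPM), followed by *CYP94B3* (0.723 to 3.41 CPM) and *CYP94C1* (0.598 to 1.72 CPM). *JOX3* (AT3G55970) rested on 6 to 23 reads per library. In *hfr1-101* it stood at 0.700, 0.733 and 0.467 CPM in HRFR and at 0.396, 0.265 and 0.232 CPM after 25 h, without overlap. The fall was 2.14-fold (log2FC -1.10, SE 0.38, adjusted p = 0.0420, edgeR). It was lost without HRFR replicate 1 or 2 (-1.02 and -0.98), without LRFR 25 h replicate 2 or 3 (-1.03 and -0.94), with no filter on low counts and in DESeq2 (adjusted p = 0.0654).

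For the receptor and its MYC partners the groups lay close together. *COI1* averaged between 32.2 and 34.7 CPM in the 9 groups and *MYC3* between 37.9 and 43.2 CPM, and 0 of these 4 genes were called in any comparison. *MYC4* (AT4G17880) passed the adjusted p at 25 h in Col-0 but not the fold threshold (29.0 to 43.1 CPM on average, log2FC 0.57, SE 0.10, adjusted p = 2.30e-04, edgeR, and 0.67 without both Col-0 libraries that stood apart, which is past it), and likewise in *hfr1-101* (0.48, SE 0.10, adjusted p = 9.69e-04, edgeR). In *pif457* it was 0.30 (SE 0.10, adjusted p = 0.134, edgeR). *MYC2* averaged between 24.6 and 32.1 CPM. It overlaps AT1G32630 on the opposite strand over 3241 bases, and because the strand setting of the counting is not given in the sources used here, reads of the pair may not have been separated.

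The *JAZ* genes encode the repressors and are themselves switched on by jasmonate. Of 9 tested, 0 were called in the 7 comparisons of light conditions. At 1 h, 8 of 9 had a negative log2FC in Col-0 (median -0.36), 6 of 9 in *hfr1-101* (median -0.02) and 2 of 9 in *pif457* (median 0.07). The medians over all genes tested were -0.014, 0.006 and 0.003 in the same order. Without Col-0 HRFR replicate 1 it was 4 of 9 in Col-0 (median 0.02). From 1 h to 25 h in Col-0, 4 of 9 had a positive log2FC, and the values lay between -0.35 and 0.52. *JAZ2* passed the adjusted p at 1 h in Col-0 but not the fold threshold (log2FC -0.41, SE 0.11, adjusted p = 0.0247, edgeR), as did *JAZ6* at 25 h in Col-0 (-0.52, SE 0.14, adjusted p = 0.0165, edgeR) and in *hfr1-101* (-0.59, SE 0.14, adjusted p = 0.00462, edgeR). Without Col-0 HRFR replicate 1, *JAZ2* was at -0.27 (adjusted p = 0.258, edgeR) and *JAZ6* in Col-0 at -0.32 (adjusted p = 0.139, edgeR), and without Col-0 LRFR 25 h replicate 1 *JAZ6* was at -0.43 (adjusted p = 0.0713, edgeR). *JAZ9* (AT1G70700) was higher in *pif457* than in Col-0 after 1 h, at 48.4, 56.4 and 45.9 CPM against 33.1, 32.6 and 43.8 CPM. These libraries did not overlap, and the log2FC was 0.46 (SE 0.13, adjusted p = 0.0356, edgeR). The call was lost without Col-0 LRFR 1 h replicate 1 or 2 (0.40 and 0.39) and without *pif457* LRFR 1 h replicate 1 or 2 (0.49 and 0.37). It was also lost in a fit of only the groups compared.

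*JAZ7* had large fold changes on few reads, 2 to 57 per library. Col-0 HRFR replicate 1 held 1.74 CPM, while replicates 2 and 3 held 0.351 and 0.362 CPM, and the other 24 libraries lay between 0.0656 and 0.930 CPM. Its log2FC in Col-0 was -1.60 at 1 h (SE 0.63, adjusted p = 0.226, edgeR) and -1.94 at 25 h (SE 0.66, adjusted p = 0.0618, edgeR), with overlapping libraries both times. Without Col-0 HRFR replicate 1 these were -0.37 and -0.71 (edgeR adjusted p = 0.911 and 0.573), and without Col-0 LRFR 25 h replicate 1 the value at 25 h was -2.80 and was called (adjusted p = 0.0273, edgeR). Col-0 HRFR replicate 1 was the highest of all 27 libraries for 11 members, which besides *JAZ7* were *LOX3*, *LOX4*, *JAZ2* (24.0 CPM), *JAZ5* (2.14 CPM), *JAZ6* (34.3 CPM), *JAZ8* (0.244 CPM), *JOX2* (24.9 CPM), *OPR3* (23.6 CPM), *VSP1* (5.37 CPM) and *VSP2* (6.92 CPM). How many of all genes were highest in this library was not counted, so the 11 are not shown to be particular to jasmonate genes. The part of root RNA or of handling in these values was not tested. The 10 touch and wound genes summed to 182 CPM in the highest Col-0 HRFR library, to 143 CPM in the lowest, to 217 to 254 CPM in the 1 h libraries and to 85.8 to 118 CPM in the 25 h libraries. Most of the sum came from *TCH2*, *TCH3* and *TCH4*, which averaged 35.6, 43.4 and 52.3 CPM in Col-0 HRFR. At 1 h in Col-0 only *TCH4* of the 10 was called higher (116 CPM on average), beside 1.42% of all genes, and the median log2FC of the 10 was 0.03.

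*VSP1* (AT5G24780) and *VSP2* (AT5G24770), storage protein genes long used as markers of the response to jasmonate, were weakly expressed. *VSP1* in Col-0 stood at 5.37, 4.48 and 2.63 CPM in HRFR, at 3.57, 3.76 and 2.57 CPM after 1 h and at 4.55, 2.85 and 2.97 CPM after 25 h. In *pif457* it stood at 1.27, 1.84 and 1.74 CPM, at 1.55, 1.90 and 1.02 CPM and at 1.41, 1.24 and 1.54 CPM in the same order. In *hfr1-101* it stood at 2.89, 4.46 and 2.55 CPM, at 2.35, 3.82 and 3.07 CPM and at 2.11, 1.59 and 2.38 CPM. The *hfr1-101* libraries overlapped with Col-0 in HRFR and after 1 h. After 25 h they lay wholly below Col-0, and the difference was not called in any light. Each *pif457* group lay wholly below Col-0 of the same light. *VSP1* was 2.57-fold lower in HRFR (log2FC -1.36, SE 0.28, adjusted p = 0.00847, edgeR), 2.21-fold after 1 h (-1.15, SE 0.29, adjusted p = 0.0206, edgeR) and 2.48-fold after 25 h (-1.31, SE 0.29, adjusted p = 0.00772, edgeR). In HRFR the call was lost in a fit of only the groups compared and without Col-0 HRFR replicate 1 (-1.13, adjusted p = 0.0783, edgeR). At 1 h it was lost without replicate 1 or 2 of Col-0 or replicate 1 or 3 of *pif457* (-1.17 to -0.94), and at 25 h without *pif457* replicate 2 (-1.23, adjusted p = 0.0518, edgeR). With *LOX2* and *ST2B* this made 3 members lower in *pif457* in HRFR, beside 1.69% of all genes. With *ST2A* and *ST2B* it made 3 at 1 h and 3 at 25 h, beside 2.41% and 4.04% of all genes.

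*VSP2* fell in *hfr1-101* at 25 h, from 3.96, 5.49 and 4.42 CPM in HRFR to 1.52, 1.95 and 2.64 CPM, without overlap. The fall was 2.25-fold (log2FC -1.17, SE 0.35, adjusted p = 0.0184, edgeR), and it was lost without HRFR replicate 2 and without LRFR 25 h replicate 1 or 2 (edgeR adjusted p = 0.0769, 0.0789 and 0.0608). *VSP1* in the same comparison had a log2FC of -0.70 (SE 0.27, adjusted p = 0.0768, edgeR). The members called in *hfr1-101* at 25 h were thus *ST2A* and *ST2B*, which rose beside 3.35% of all genes, and *JOX3* and *VSP2*, which fell beside 3.26%. The coding sequences of *VSP1* and *VSP2* are 90.4% identical, and reads matching both may have been counted for neither or for the wrong gene. In Col-0 *VSP2* had a log2FC of -0.17 at 25 h, and the interaction was -1.01 (SE 0.48, adjusted p = 0.873, edgeR).

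A further 46 genes of jasmonate synthesis, transport, conversion, signalling and output were looked at, of which 36 were tested. In Col-0 1 rose at 1 h and 2 rose at 25 h, beside 1.42% and 2.38% of all genes, and 0 fell. In *pif457* 0 were called at 1 h, beside 0.148%, and 2 rose at 25 h, beside 0.498%. In *hfr1-101* 1 rose at 1 h, beside 1.62%, while 4 rose and 1 fell at 25 h, beside 3.35% and 3.26%. *JAM2* (AT1G01260), a bHLH repressor that competes with MYC2 for its sites, went from 14.9, 13.6 and 14.7 CPM in HRFR to 35.4, 38.1 and 43.9 CPM after 1 h in Col-0 and back to 16.9, 16.5 and 17.4 CPM after 25 h. In *pif457* it went from 15.4, 13.6 and 14.3 CPM to 17.8, 16.9 and 17.2 CPM at 1 h. The log2FC at 1 h was 1.44 in Col-0 (SE 0.08, adjusted p = 1.40e-12, edgeR) and 1.61 in *hfr1-101* (SE 0.08, adjusted p = 1.44e-13, edgeR), and the interaction with *pif457* was -1.18 (SE 0.11, adjusted p = 2.04e-07, edgeR).

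*ABCG16* (AT3G55090), a transporter of jasmonate, and *HPL1* (AT4G15440) rose at 25 h in all 3 genotypes. *ABCG16* in Col-0 went from 1.80, 1.91 and 2.33 CPM to 7.88, 5.01 and 3.83 CPM (log2FC 1.47, SE 0.26, adjusted p = 3.61e-04, edgeR, and 1.13 without LRFR 25 h replicate 1), and its log2FC was 1.25 in *hfr1-101* and 1.11 in *pif457* (edgeR adjusted p = 8.76e-04 and 0.0343). *HPL1* in Col-0 went from 3.87, 3.90 and 4.17 CPM to 5.73, 8.59 and 6.23 CPM (0.78, SE 0.16, adjusted p = 0.00141, edgeR), with 0.75 in both mutants. The groups compared did not overlap for either gene in any genotype. *JMT*, which methylates jasmonate, and *FAD3*, a fatty acid desaturase gene, rose at 25 h in *hfr1-101* (0.96 and 0.70, edgeR adjusted p = 0.0322 and 7.27e-06). *JMT* was also called in Col-0 at 25 h without LRFR 25 h replicate 1 (1.35, adjusted p = 9.61e-04, edgeR). *ILL6*, which splits the isoleucine conjugate, fell at 25 h in *hfr1-101* (-0.78, adjusted p = 7.28e-04, edgeR).

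**Figure D5:**
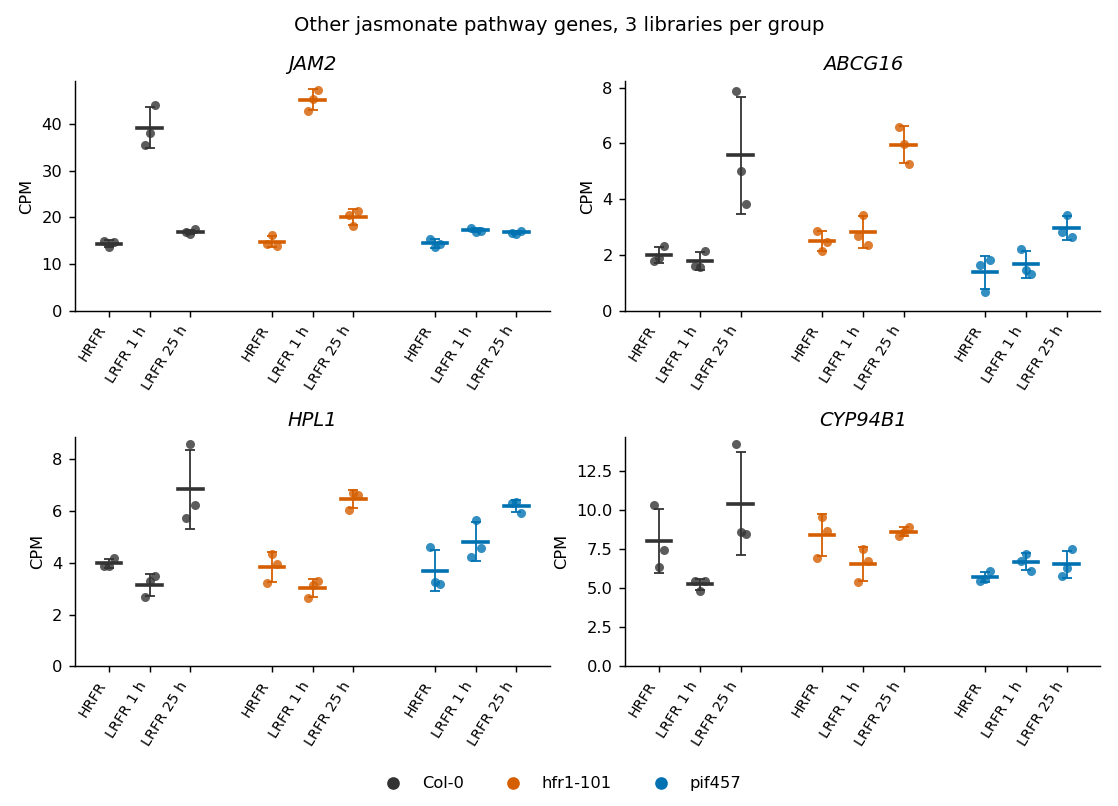
*JAM2*, *ABCG16*, *HPL1* and *CYP94B1* in CPM (axes from 0); points are libraries, the bar is the mean and the whiskers the SD of 3 libraries per group. *JAM2* is high at 1 h in Col-0 and *hfr1-101* (35.4 to 47.3 CPM) and at most 21.4 CPM in every other group, while *ABCG16* and *HPL1* are highest at 25 h in each genotype.

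In the genotype comparisons of these 36 genes, 1 was lower in *pif457* in HRFR (*LOX6*, log2FC -0.35), beside 1.69% of all genes. At 1 h 2 were higher and 2 lower, beside 1.8% and 2.41%, and at 25 h 4 were lower, beside 4.04%. The call of *LOX6* was lost without Col-0 HRFR replicate 1 (-0.24, adjusted p = 0.211, edgeR). At 1 h those higher were *HPL1* (0.61) and *JAM1* (0.50), and those lower *JAM2* (-1.18) and *AOC4* (-0.36). At 25 h the 4 were *ABCG16* (-0.91), *CYP94B1* (-0.67), *ILL6* (-0.64) and *ACX5* (-0.32). Without Col-0 LRFR 25 h replicate 1 the first 3 calls were lost (-0.58, -0.39 and -0.54, edgeR adjusted p = 0.193, 0.197 and 0.0796). *CYP94B1*, an oxidase of the isoleucine conjugate, also rose in Col-0 from 1 h to 25 h, from 5.48, 4.84 and 5.44 CPM to 14.2, 8.59 and 8.45 CPM (log2FC 0.99, SE 0.19, adjusted p = 5.51e-04, edgeR, and 0.71 without LRFR 25 h replicate 1). Of the 36 genes, 3 rose and 1 fell between these times, beside 2.66% and 2.36% of all genes. Between *hfr1-101* and Col-0, 0 of the 36 were called in any light.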

How the data were processed

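RNA-seq counts of 27 libraries in 9 groups were used. The authors trimmed reads with Cutadapt, removed ribosomal and low-complexity reads, mapped what remained with STAR (TAIR10 build) and used htseq-count for the reads per gene. These whole-number counts were deposited without normalization. The kit was stranded. The sources used here do not give the strand setting of the counting or the tool versions. Reads assigned to no gene (6.15 to 7.09% of reads) entered neither library sizes nor tests.

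Members were taken by gene ID, and all 34 were found. Members and gene lists were chosen with earlier results of these data known. Genes were kept with filterByExpr, and edgeR 4.0.16 (R 4.3.3) was fitted with TMM factors (0.926 to 1.09) and 9 group means, which leaves 18 residual degrees of freedom. The common biological coefficient of variation was 0.0943. A call needed an adjusted p under 0.05 over 20887 genes (Benjamini-Hochberg) and, between light conditions, an absolute log2 change over 0.6, after the study's methods. The test was checked on simulated data for Col-0 at 1 h against HRFR (20722 genes tested), by adjusted p and direction without the fold threshold. Of 50 genes at each size, it found 30 changed by 0.5 on the log2 scale, 48 changed by 1 and 50 changed by 2. It passed 9 unchanged genes. Every simulated gene had the same relative spread, no library stood apart, and genes with few reads were not among those changed. The check therefore does not cover the whole call rule or these features of the data.

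Values per library are given for every member called in at least 1 comparison, for some not in every group. Other members are given by range or count. At most 6 called genes of the 46 other pathway genes were named per comparison, and promoters were shown for the 4 members with the largest called change in Col-0. Coordinates, promoters and coding sequences came from RefSeq TAIR10.1, in which all 34 IDs were found. The deposited file holds none. Identities used Biopython 1.88 and figures matplotlib 3.10.9 in Python 3.11.15.

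Labels give replicate numbers 1 to 3 but no shared day or batch. Deviations from the group means correlated by over 0.1 in all 3 pairs in 2 of 13 comparisons of groups. These were Col-0 LRFR 25 h with HRFR, and *hfr1-101* with Col-0 at LRFR 25 h. The main fit did not pair libraries by number, there or elsewhere, and the number as a block was an alternative.

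Alternatives were DESeq2 1.42.0, its size factors within edgeR, no filter on low counts, the replicate number as a block, leaving out both Col-0 libraries that stood apart, fitting only the groups compared, no fold threshold, and leaving out each library in turn. Values of sign counts, other pathway genes and members past the adjusted p alone without 3 Col-0 libraries were added after seeing the data.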

Additional observations from a re-analysis of the deposited data

Results flagged for a closer look

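The light response of *ST2A* differed between *pif457* and Col-0 at both times, by -3.13 on the log2 scale at 1 h (SE 0.48, adjusted p = 2.68e-04, edgeR) and by -3.74 at 25 h (SE 0.48, adjusted p = 3.99e-04, edgeR). *ST2B* differed at 1 h by -1.48 (SE 0.25, adjusted p = 7.81e-04, edgeR). *LOX3* differed at 1 h in the other direction, by 1.11 (SE 0.28, adjusted p = 0.0326, edgeR). Each was picked out because the difference between the genotypes itself passed the test. Those of the sulfotransferase genes passed in every alternative run, and that of *LOX3* in 8 of 18.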

How the results depend on the processing

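Of 35 calls of single members, 18 were kept in every alternative run and 17 were lost in at least 1, and 0 changed direction. The light responses of *ST2A* and *ST2B* against HRFR in Col-0 and *hfr1-101*, the *pif457* interactions of *ST2A* at both times and that of *ST2B* at 1 h were among those kept. With the replicate number as a block the counts of called members, such as 4 and 2 in Col-0 at 1 h and 25 h against HRFR, equalled those without it in all 17 comparisons, and no single call was lost. The cause of the changes below was not tested.

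A fit of only the groups compared called 2 members in Col-0 at 1 h, 1 in Col-0 from 1 h to 25 h, 1 in *pif457* against Col-0 in HRFR and 0 in *hfr1-101* against Col-0 at 25 h. Such a fit has fewer libraries to estimate the spread. With no fold threshold the counts were 4 in Col-0 at 25 h (3 higher, 1 lower), 6 in Col-0 from 1 h to 25 h (4 higher, 2 lower) and 8 in *hfr1-101* at 25 h (4 higher, 4 lower). Not all of these members are named above. DESeq2 called 5 in *pif457* against Col-0 in HRFR, where it called 943 of all genes and edgeR 563. It called 1 in the *hfr1-101* interaction at 25 h, where it called 5 of all genes and edgeR 0. For the other alternative runs of this section, calls over all genes were not counted, so a changed count is not a result about these members. Without both Col-0 libraries that stood apart, 5 were called in Col-0 from 1 h to 25 h.

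Leaving out 1 library at a time gave 3 to 4 members called in Col-0 at 25 h against HRFR (4 without HRFR replicate 2 or LRFR 25 h replicate 1). In Col-0 from 1 h to 25 h it gave 1 to 6 (1 without LRFR 1 h replicate 1 or 2, 6 without LRFR 1 h replicate 3, 5 without LRFR 25 h replicate 1). It gave 0 in *pif457* at 25 h whichever library was left out, and 2 to 5 in *hfr1-101* at 25 h (2 without LRFR 25 h replicate 2). For *pif457* against Col-0 it gave 0 to 5 in HRFR (0 without Col-0 replicate 1, 5 without Col-0 replicate 2, 1 without *pif457* replicate 2 or 3) and 2 to 7 at 1 h (2 without replicate 1 of either genotype, 3 without replicate 2 of either or *pif457* replicate 3). The *pif457* interaction at 1 h had 2 to 5 (5 without Col-0 LRFR 1 h replicate 3) and the *hfr1-101* interaction at 25 h 0 to 1 (1 without Col-0 LRFR 25 h replicate 1).

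The p-values of the main fit rest on the spread between the 3 libraries of a group, pooled over all 9 groups. They do not measure the spread in the compared groups alone. A member that missed the threshold is not shown to be steady.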

Other observations

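Several genes at the output end of jasmonate signalling had few or no reads, while *NAC072* lay between 10.1 and 30.1 CPM, *CORI3* between 0.867 and 6.51 CPM and *NAC055* between 0.325 and 2.71 CPM. The defensin gene *PDF1.2A* and the flower regulators *MYB21* and *MYB24* had 0 reads in every library, and *PDF1.2B*, the thionin gene *THI2.1* and *NATA1* had at most 1 read. *ERF1* had at most 4 reads and *ORA59*, a regulator of defensin genes, lay between 0.0740 and 0.730 CPM. *TAT3*, an aminotransferase gene induced by wounding, had 73 reads (2.91 CPM) in *hfr1-101* LRFR 1 h replicate 3 and at most 12 in the other libraries. *JAZ13* had 22 reads in Col-0 HRFR replicate 1 and at most 10 elsewhere.

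*TCH4*, a cell wall gene induced by touch, rose at 1 h by 1.14 in Col-0, 1.36 in *hfr1-101* and 0.99 in *pif457* on the log2 scale (edgeR adjusted p = 1.79e-04, 1.59e-05 and 0.0188). After 25 h it fell by 1.17 in Col-0 and by 1.12 in *hfr1-101* (edgeR adjusted p = 1.63e-04 and 1.55e-04), and the value in *pif457* was -0.47 (adjusted p = 0.265, edgeR). In Col-0 its level was 47.1 to 57.1 CPM in HRFR, 107 to 131 CPM after 1 h and 13.8 to 31.4 CPM after 25 h, without overlap. The part of handling in these values was not tested.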
